A study of Homo sapiens with 8 samples.

Results

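KYSE180 and KYSE30 are established human esophageal squamous cell carcinoma lines, and the comparison here is between the lines themselves. All 8 arrays of the study entered it: 4 arrays of KYSE180 and 4 of KYSE30. Each line had been passed through 4 rounds of transwell selection, in which cells migrate through a porous membrane. The labels call the sublines of stronger motility D (30D, 180D) and those of weaker motility U (30U, 180U), and each of these 4 groups has 2 arrays. No transgene, drug or other treatment is named for any group, and all sublines were grown for 2 passages after harvest and lysed near confluence. Every U and D pair came from 1 of 4 independent parental populations, 2 per line, so an array pair within a line repeats the selection and not the tumour. Only 1 line stands on each side, and a difference between them describes this pair of lines. The labels describe both as epithelial and as taken from well differentiated primary tumours. Differences are given on the log2 scale as KYSE180 minus KYSE30, with fraction (U or D) as a covariate, and each level is a log2 RMA value, which has no unit. Values by array are listed in the order U replicate 1, U replicate 2, D replicate 1, D replicate 2.

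Squamous epithelium is built in layers. Basal cells carry the keratin pair KRT5 and KRT14 and the transcription factors SOX2 and TP63, while suprabasal cells change keratins, strengthen desmosomes and assemble a cross-linked protein envelope. Esophageal squamous carcinomas keep parts of this programme, and many also carry a high level of NRF2 (NFE2L2) activity, a stress-response factor that switches on glutathione synthesis, aldo-keto reductases and drug exporters once its inhibitor KEAP1 no longer holds it back. Growth factor receptors such as EGFR, the locus of the cell cycle inhibitors CDKN2A and CDKN2B, and the differentiation-linked YAP and TEAD programme are other features that commonly part tumours of this type.

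Arrays of the same line correlated with r of at least 0.992 across genes, and arrays of different lines with r between 0.860 and 0.869. The ratio of 3′ to 5′ signal of the ACTB control, a mark of RNA integrity, was highest on 180D replicate 1, with a log2 value of 1.92, against 1.06 to 1.42 on the other arrays. The squamous label was checked on 11 measured markers. All 11 lay at or above 4.46 in KYSE180, the level that served as the filter against dim probe sets, and 10 did so in KYSE30. KRT14 was below it in KYSE30 and KRT5 barely above it, so KYSE30 lacked high levels of the defining basal keratin pair. The other markers were mixed, given here as KYSE180 and KYSE30 means. SFN (12.84 and 12.72), PERP (13.05 and 12.32) and JUP (10.76 and 10.36) were bright in both lines. S100A2 (13.52 and 10.54), LAMB3 (10.72 and 9.36), DSG3 (10.54 and 7.14), DSC3 (10.37 and 6.17) and PKP1 (10.23 and 4.76) were lower in KYSE30. ITGB4 (9.08 and 10.54) was higher in it. The summed linear level of the 11 markers ran from 48400 to 55800 on KYSE180 arrays and from 16000 to 18400 on KYSE30 arrays. Markers of other cell types were partly above the filter value in both lines, and their part in the line differences was not tested. For fibroblasts 4 of 10 markers reached the filter value in each line (sums of 331 to 450 in KYSE180 and 269 to 306 in KYSE30), for immune cells 3 of 8 in KYSE180 and 2 of 8 in KYSE30 (140 to 156 and 159 to 174), for endothelium 5 and 6 of 8 (215 to 241 and 228 to 249), and for melanocytes and glia 2 of 5 in each (131 to 139 and 135 to 152). The highest of these markers was COL1A1, at 7.54 in KYSE180 and 6.83 in KYSE30, and SOX10 read 5.96 and 5.79 and PMEL 5.22 and 5.72. COL1A2, COL3A1, LUM, PTPRC, KDR, TIE1, MLANA, TYR and S100B were below the filter value in both lines.

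Of 14180 genes tested, 2393 (16.9%) were called, which took an adjusted p under 0.05 in limma and at least a 2-fold difference, counted with levels under the filter value raised to it. KYSE180 was higher for 1166 (8.22% of tested genes) and lower for 1227 (8.65%). The arrays of the lines did not overlap for 2390 of the called genes, beside 63.1% of all tested genes, and 2392 had the same direction in U and in D sublines. At the same fold measure, 94 genes (0.663%) were at least 16-fold higher and 62 (0.437%) at least 16-fold lower. The median difference over all tested genes was 0.05 and the median absolute difference 0.33. On the adjusted p alone 9518 genes (67.1%) passed, so the fold requirement sets the count.

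Each gene is given by its brightest probe set, and other probe sets can differ. For 25 of the named genes that were called, at least 1 further probe set above the filter value did not pass the test in the same direction (limma, adjusted p under 0.05). No other probe set bore out the difference for KRT7 (-0.13 on the other), LOXL2 (-0.07 and 0.07), L1CAM (-0.16), PCDH1 (-0.26), NOTCH3 (0.12), GSTA1 (-0.13), ABCB6 (0.13), CLDN4 (0.05), HOXB3 (0.01), FASN (-0.13), SCNN1A (-0.07 and 0.01), FZD5 (-0.22) or GDF15 (-0.24), and their differences are uncertain to that extent. For CDKN2A, FN1, FGFR2, IGFBP5, TGFB2 and TGFA at least 1 further probe set passed in the same direction and at least 1 did not. With the mean of all probe sets in place of the brightest, 45 called named genes had a difference smaller by over 1.5 times. Among them NTRK2 came to 4.12, UCHL1 to 5.06, CDKN2B to -3.50, EREG to -3.45, CALD1 to -3.17, KRT7 to -2.21, LOXL2 to -1.39, PROM2 to -1.18 and FGFR2 to 1.84, and all of these stayed called. The call was lost for 14: CLDN4, DTX3, ELOVL6, FAH, FASN, FZD5, GPC1, HK2, HOXB3, OVOL1, PRKCH, SCNN1A, SREBF1 and TAP2.

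**Figure D1:**
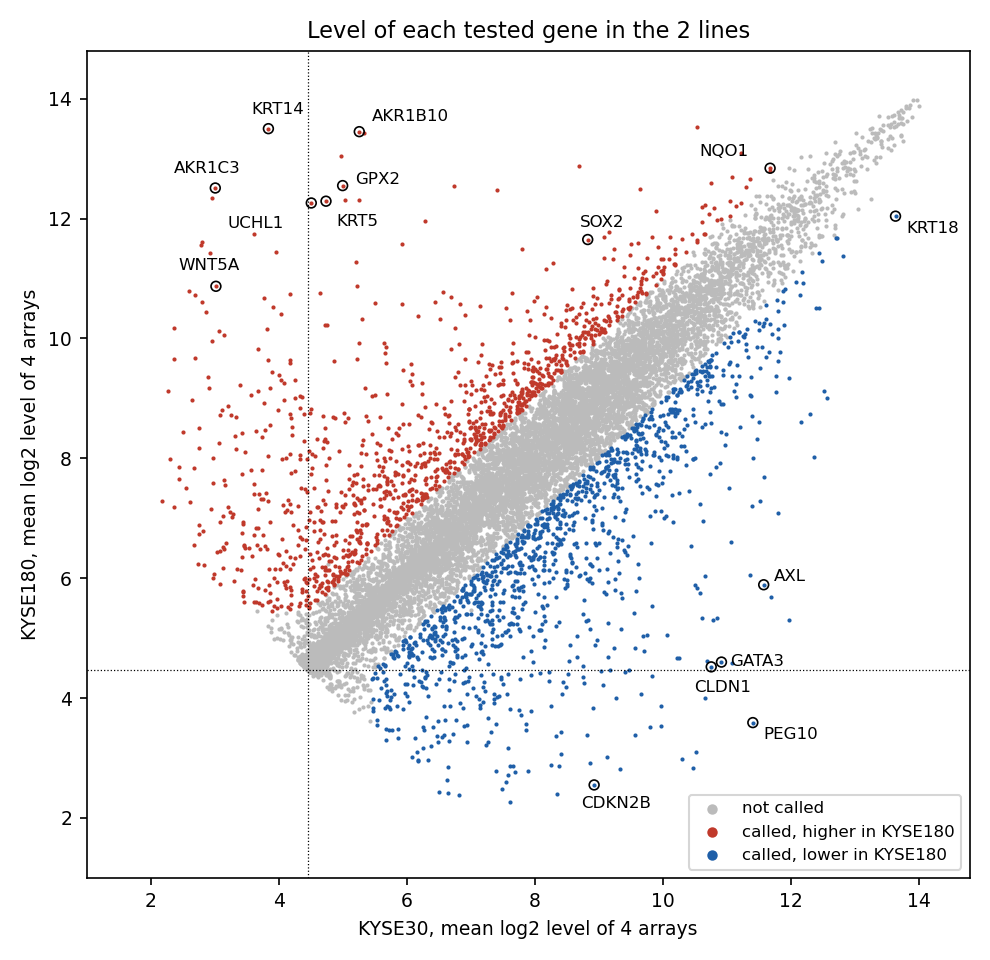
Mean log2 level of each tested gene in KYSE30 (x axis) and KYSE180 (y axis), 4 arrays per line, with the 1166 genes called higher in KYSE180 in red, the 1227 called lower in blue and the rest in grey. Dotted lines mark the filter value of 4.46, circles mark 15 genes discussed in the text, and sex-linked marker genes are not drawn.

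The 15 genes furthest above KYSE30 fell into a few families: keratins and envelope proteins (KRT14, KRT5, CSTA), aldo-keto reductases and a glutathione peroxidase (AKR1B10, AKR1C1, AKR1C2, AKR1C3, GPX2), secreted proteins (MFAP5, PI3, MMP10), surface and junction proteins (TENM2, GJA1), the ubiquitin hydrolase UCHL1 and the calcium-binding protein CALB1. Their folds, counted from the filter value where KYSE30 lay below it, ran from 128 for MMP10 to 529 for KRT14. The 15 genes furthest below were PEG10, PADI3, CST6, GATA3, CLDN1, SPOCK1, FAM107B, MAGEB2, PKIB, TGFBI, VGLL1, AXL, KRT80, PTGES and PTGER4, with folds from 46.1 for PTGER4 to 124 for PEG10. CALB1 read 11.75, 11.79, 11.37 and 11.32 in KYSE180 and 2.81, 2.83, 2.69 and 2.80 in KYSE30. TENM2, a teneurin of cell surface adhesion, read 11.59, 11.55, 11.74 and 11.58 against 2.64, 2.78, 2.93 and 2.83. UCHL1 read 12.18, 12.23, 12.28 and 12.33 against 4.56, 4.47, 4.42 and 4.60. For these genes the lowest KYSE180 array stood far above the highest KYSE30 array. In the other direction, PKIB, an inhibitor of protein kinase A, read 2.94, 3.04, 2.67 and 2.71 in KYSE180 against 10.73, 10.69, 10.23 and 10.25 in KYSE30. FAM107B read 4.41, 4.71, 4.78 and 4.57 against 10.59, 10.60, 10.76 and 10.79.

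The genes were read through 37 lists covering lineage, metabolism, signalling and the cell surface. Of their 1605 tested symbols 609 were called, which is 37.9%, beside 16.9% of all tested genes. A list whose share lies near 37.9% therefore does not stand apart from the other lists.

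**Figure D2:**
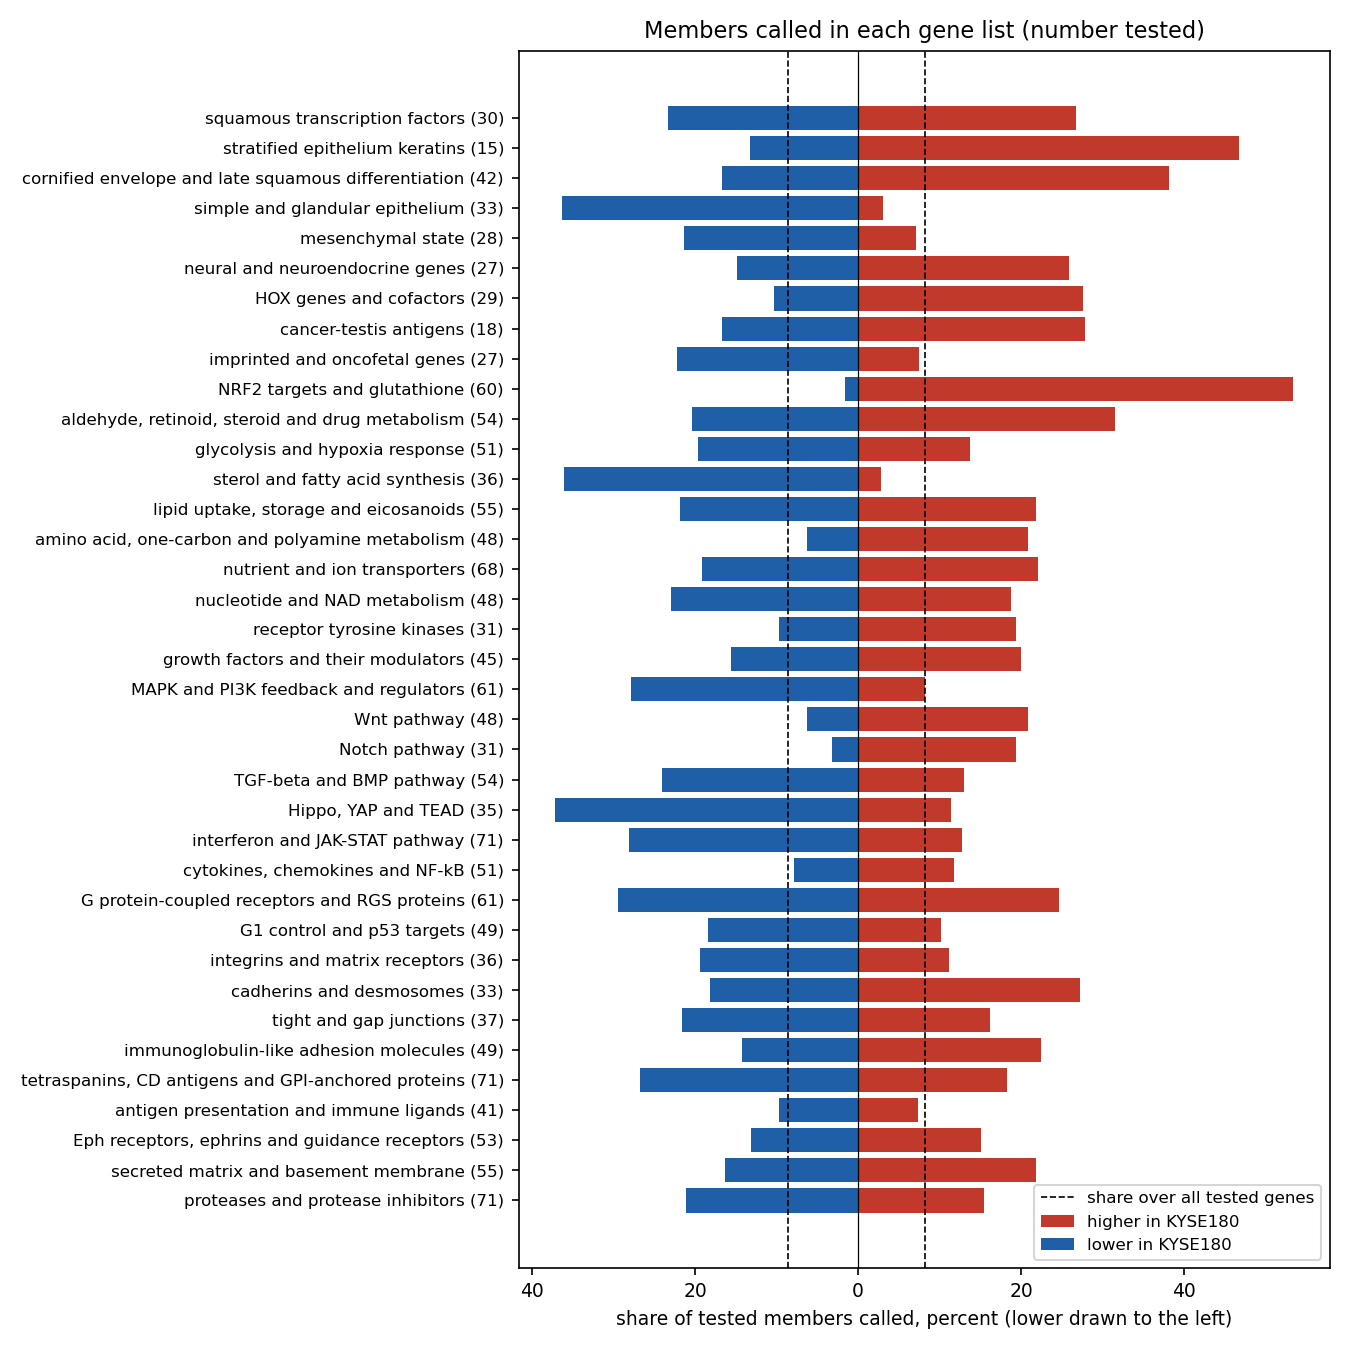
Share of the tested members of each gene list called higher (red, to the right) or lower (blue, to the left) in KYSE180, in percent, with the number of members tested in brackets. Dashed lines mark the shares over all tested genes, 8.22% higher and 8.65% lower; the NRF2 list reaches furthest to the right (53.3%) and the Hippo, YAP and TEAD list furthest to the left (37.1%).

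Of 15 tested keratins of stratified epithelium 7 were higher in KYSE180, 2 lower and 6 not called. Their median difference was 0.58, which became 0.17 with no filter and 2.08 with a filter at the 60th percentile. KRT14, a basal keratin, read 13.64, 13.60, 13.43 and 13.34 in KYSE180 and 3.63, 3.45, 4.27 and 4.0 in KYSE30, a difference of 9.66 ± 0.16 (SE, 4 arrays per line; limma adjusted p = 8.63e-10). Its partner KRT5 read 12.32, 12.29, 12.36 and 12.17 against 4.78, 4.48, 4.84 and 4.84, a difference of 7.55 ± 0.08 (limma adjusted p = 1.04e-10). Both lay far above the filter value in KYSE180 and near or below it in KYSE30. The suprabasal esophageal keratin KRT4 differed by 5.50 ± 0.10, from a KYSE30 mean of 4.73, and its partner KRT13 by 4.19 ± 0.22, from 8.69. KRT15, another basal keratin, differed by 2.38 ± 0.09. KRT80, a keratin of later differentiation, went the other way, at 3.90, 4.32, 5.25 and 5.17 in KYSE180 and 10.10, 10.21, 10.37 and 10.38 in KYSE30. KRT23 was lower (-1.68 ± 0.07) on means of 3.79 and 5.47, which is 2.02-fold from the filter value, and it lost its call without 30D replicate 1 or without 30U replicate 2 (differences of -1.66 and -1.65). KRT6A, KRT6B, KRT6C, KRT17 and TP63 have no probe set naming them alone and were not analysed here.

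Squamous transcription factors were split rather than shifted. Of 30 tested 8 were higher and 7 lower, and the median difference was 0.03. FOXQ1, a forkhead factor, was higher in KYSE180 by 4.0 ± 0.17, and KLF5, which is active in proliferating basal cells, by 2.26 ± 0.05. SOX2 read 11.63, 11.70, 11.67 and 11.61 in KYSE180 and 9.79, 9.81, 7.85 and 7.88 in KYSE30. The lines did not overlap for SOX2, but the KYSE30 arrays split by subline, so that the difference was 1.87 between U sublines and 3.78 between D sublines. GATA3, a luminal and differentiation-linked factor, was on the side of KYSE30, at 11.06, 11.11, 10.73 and 10.77 against 4.55, 4.68, 4.47 and 4.68 in KYSE180 (-6.32 ± 0.08, limma adjusted p = 1.88e-10). SOX7 (-3.02 ± 0.12), OVOL1 (-1.75 ± 0.07), ELF3 (-1.60 ± 0.09) and KLF4 (-1.35 ± 0.05), of which OVOL1, ELF3 and KLF4 promote epithelial differentiation, were lower too. ELF3 and KLF4 were chosen after their values were seen, and OVOL1 lost its call with the mean of probe sets (-0.99).

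Cornified envelope genes were called in both directions, more often higher. Of 42 tested 16 were higher and 7 lower, with a median difference of 0.30. CSTA, a cysteine protease inhibitor built into the envelope, read 12.55, 12.45, 12.27 and 12.10 in KYSE180 and 2.89, 3.06, 2.98 and 2.89 in KYSE30. SERPINB13 (6.91 ± 0.09), an inhibitor of lysosomal proteases, the kallikrein KLK10 (6.10 ± 0.10), SERPINB3 (5.35 ± 0.31), KRTDAP (4.81 ± 0.34) and trichohyalin, TCHH (4.75 ± 0.12), were higher as well. Filaggrin, FLG, was at 5.37, 5.51, 7.14 and 6.91 in KYSE180 and below the filter value in KYSE30. Among the genes higher in KYSE30 were involucrin, IVL, an early envelope scaffold (-2.88 ± 0.17), sciellin, SCEL (-2.36 ± 0.06), and the kallikrein KLK5 (-2.48 ± 0.21). PADI3, which citrullinates filaggrin and trichohyalin, read 4.67, 4.60, 5.97 and 5.98 in KYSE180 against 12.07, 12.03, 11.90 and 11.90 in KYSE30, and CST6, an envelope-associated cystatin, 4.29, 4.51, 4.71 and 4.82 against 10.79, 10.83, 11.38 and 11.36. Each line therefore expressed part of the late squamous programme, and for several genes the other line lay at the filter value. SERPINB3 has a near-identical neighbour, SERPINB4, and its probe set may read both.

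The called genes of simple and glandular epithelium were mostly higher in KYSE30. Of 33 tested 12 were lower in KYSE180, 1 was higher and 20 were not called. The median difference was -0.00, and -1.06 with a filter at the 60th percentile. KRT7 read 5.27, 5.41, 5.76 and 5.72 in KYSE180 and 9.81, 9.75, 9.87 and 9.91 in KYSE30. These groups of arrays were far apart. AGR2, a protein disulfide isomerase of secretory cells, was lower on means of 8.03 and 12.37 (-4.33 ± 0.12). The tetraspanin TSPAN1 (-4.68 ± 0.12), CEACAM1 (-3.37 ± 0.16) and the endoderm factor FOXA2 (-3.26 ± 0.16) were also lower, while the simple keratins KRT8 (-1.45 ± 0.05) and KRT18 (-1.60 ± 0.04) were lower at high levels in both lines. The member that was higher was ANXA10, an annexin of gastric epithelium, by 6.61 ± 0.15.

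Mesenchymal genes gave no common direction: of 28 tested 2 were higher, 6 lower, and the median difference was 0.06. Vimentin, VIM, read 5.08, 4.74, 4.78 and 4.57 in KYSE180 and 7.80, 7.81, 8.09 and 8.09 in KYSE30, a difference of -3.16 ± 0.12 (limma adjusted p = 7.76e-08). Caldesmon, CALD1, an actin-binding protein (-6.11 ± 0.09), the collagen cross-linker LOXL2 (-4.18 ± 0.17), fibronectin, FN1 (-3.55 ± 0.23), and the factor TWIST1 (-2.96 ± 0.09) were lower in KYSE180. COL5A2, a fibrillar collagen chain (3.57 ± 0.14), and smooth muscle actin, ACTA2 (1.22 ± 0.09), were higher. E-cadherin, CDH1, was at 11.75, 11.70, 11.75 and 11.65 in KYSE180 and 11.65, 11.68, 11.82 and 11.85 in KYSE30, and these ranges overlap (-0.04 ± 0.06, limma adjusted p = 0.586). N-cadherin, CDH2, differed by 0.52 ± 0.14 and was not called. Of the fibroblast markers, COL1A1 read 7.54 in KYSE180 and 6.83 in KYSE30, THY1, PDGFRB and DCN were also above the filter value in both lines, and COL1A2, COL3A1, LUM, PDGFRA, FAP and POSTN were below it in both.

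**Figure D3:**
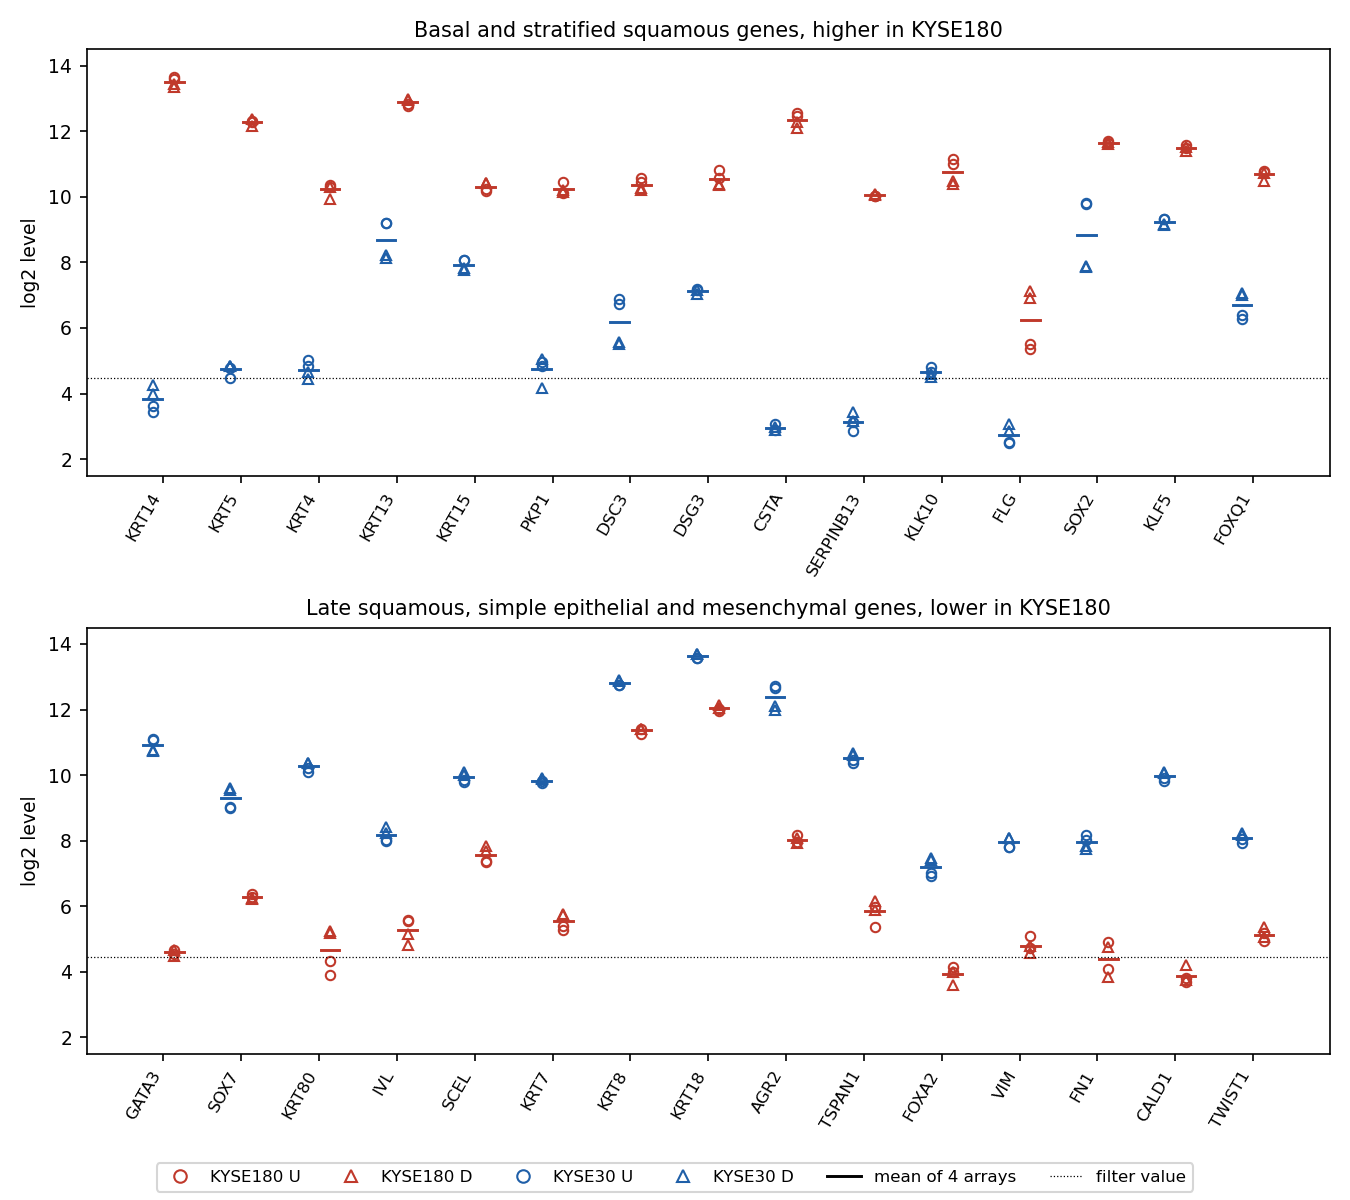
Log2 level on each of the 8 arrays for 15 squamous genes higher in KYSE180 (top) and 15 genes lower in it (bottom), with KYSE180 in red, KYSE30 in blue, circles for U and triangles for D sublines, bars for the mean of 4 arrays and a dotted line at the filter value of 4.46. The genes are examples chosen after their values were seen. The red and blue points do not overlap for any of them, which holds for 2390 of all 2393 called genes. SOX2, DSC3 and KRT13 show KYSE30 split by subline.

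Genes outside the squamous lineage were called in both directions. Among neural and neuroendocrine genes 7 of 27 were higher and 4 lower, led by UCHL1, by the peptide neurotensin, NTS (7.0 ± 0.33), and by the neuronal enolase ENO2 (2.69 ± 0.07), against the intermediate filament INA (-5.02 ± 0.10), the RNA-binding protein ELAVL2 (-5.37 ± 0.11) and the neurotrophin BDNF (-2.57 ± 0.14). Among HOX genes and cofactors 8 of 29 were higher and 3 lower. HOXD10 read 9.61, 9.70, 9.63 and 9.63 in KYSE180 and 4.03, 3.27, 3.91 and 4.10 in KYSE30, and HOXD11 (3.07 ± 0.06), HOXD13 (2.90 ± 0.08) and HOXC6 (2.63 ± 0.05) were higher as well. HOXC13 (-1.48 ± 0.07), HOXB3 (-1.24 ± 0.05) and the cofactor PBX3 (-1.69 ± 0.06) were lower. These HOXD genes lay near or below the filter value in KYSE30. Of 18 tested cancer-testis antigens, germline genes that tumours can express, 5 were higher and 3 lower: MAGEA11 (5.22 ± 0.08), PRAME (4.25 ± 0.14) and BRDT (3.61 ± 0.17) marked KYSE180, while MAGEB2, MAGEA10 and TEX15 marked KYSE30. MAGEB2 read 3.30, 3.08, 3.03 and 2.99 in KYSE180 against 10.49, 10.47, 10.59 and 10.53. MAGE genes are close copies of each other, and probe sets may bind more than 1 of them. Of 27 imprinted and oncofetal genes 2 were higher and 6 lower. PEG10, a retrotransposon-derived gene expressed from the paternal copy, read 3.87, 3.61, 3.33 and 3.53 in KYSE180 and 11.68, 11.62, 11.17 and 11.19 in KYSE30 (-7.83 ± 0.08, limma adjusted p = 4.85e-11), and the zinc finger gene PLAGL1 differed by -5.0 ± 0.09.

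NRF2 targets and glutathione genes were the list with the highest share called in 1 direction. Of 60 tested 32 were higher in KYSE180 and 1 lower, 27 were not called, and the median difference was 1.16, beside 0.05 over all tested genes. The aldo-keto reductases, which reduce carbonyls, steroids and retinaldehyde, led. AKR1C3 read 12.45, 12.62, 12.40 and 12.57 in KYSE180 and 3.04, 2.99, 2.99 and 3.02 in KYSE30, a difference of 9.50 ± 0.06 (limma adjusted p = 9.37e-12). AKR1B10 read 13.51, 13.48, 13.41 and 13.42 against 5.38, 5.0, 5.29 and 5.38. AKR1C1 and AKR1C2 differed by 8.08 ± 0.11 and 8.07 ± 0.09, but they are near-identical copies read by probe sets that may bind both. The counts include each of them, although they may not be separate evidence. Without probe sets ending in _x_at the differences were 5.91 for AKR1C1 and 4.88 for AKR1C2. These enzymes were near or below the filter value in KYSE30 and far above it on every KYSE180 array. GPX2, the epithelial glutathione peroxidase, read 12.48, 12.55, 12.61 and 12.55 against 5.34, 5.06, 4.89 and 4.71.

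Glutathione synthesis and conjugation genes were higher in part. SLC7A11, the cystine importer that feeds glutathione synthesis, differed by 3.69 ± 0.15, and GCLC, the catalytic subunit of its rate-limiting enzyme, by 2.86 ± 0.09, whereas GCLM, the modifier subunit, differed by 0.32 ± 0.05 and was not called. The transferases GSTA1 (5.55 ± 0.08), GSTM3 (5.05 ± 0.09) and GSTA4 (4.17 ± 0.13) were higher, and the leukotriene synthase relative MGST2 was lower (-1.10 ± 0.11). The pseudogene NMRAL2P, a transcript that NRF2 induces, differed by 5.65 ± 0.16. NQO1, the quinone reductase most used as an NRF2 readout, read 12.83, 12.84, 12.85 and 12.84 in KYSE180 and 11.63, 11.63, 11.73 and 11.72 in KYSE30, so that it was already bright in KYSE30 and differed by 1.16 ± 0.04. TXNRD1 and HMOX1 differed by -0.04 ± 0.06 and 0.12 ± 0.10 and were not called. NFE2L2 itself read 10.70, 10.62, 10.61 and 10.67 against 10.81, 10.75, 10.51 and 10.57, with overlapping ranges (-0.01 ± 0.06, limma adjusted p = 0.910), and KEAP1 was higher by 1.19 ± 0.05. Differences within the NRF2 list thus ran from 9.50 for AKR1C3 to -1.10 for MGST2. Between them lay values near 1, as for NQO1, and near 0, as for TXNRD1.

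**Figure D4:**
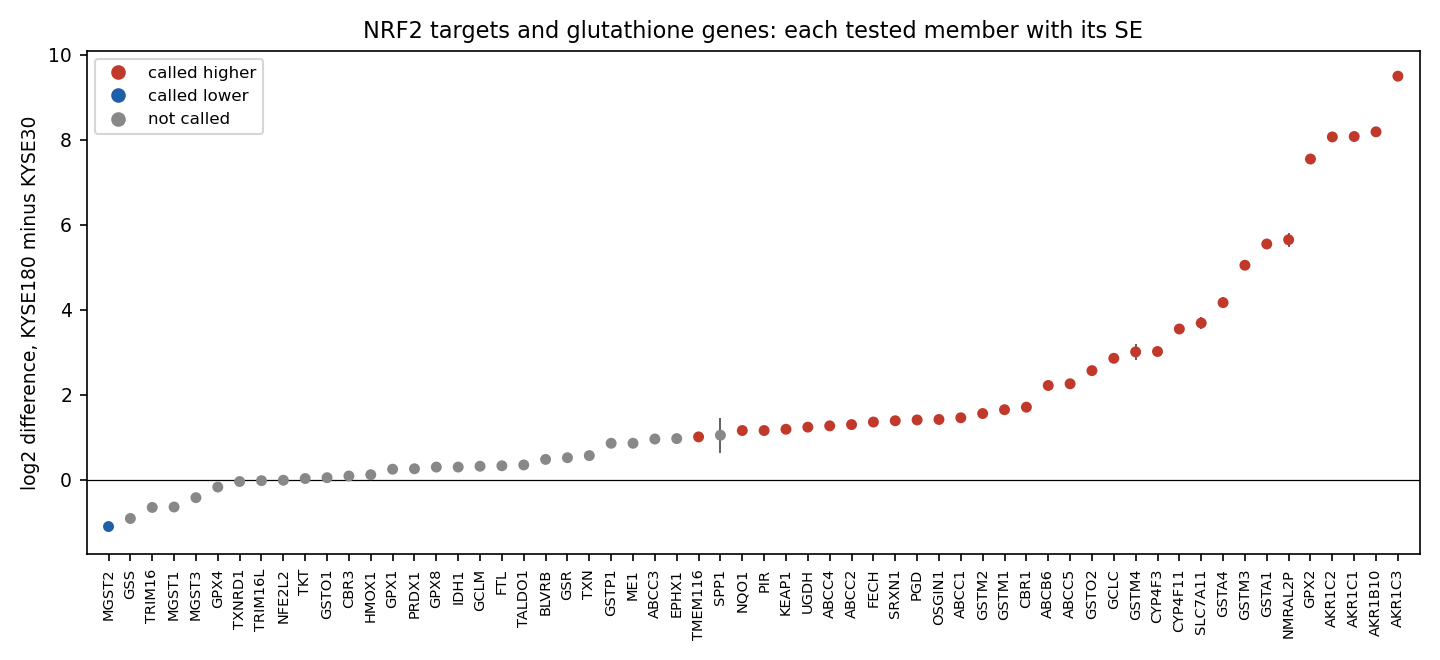
Log2 difference, KYSE180 minus KYSE30, of each of the 60 tested members of the NRF2 and glutathione list, ordered by size, with bars of 1 SE (4 arrays per line); red points were called higher, the blue one lower and the grey ones were not called. The differences run from -1.10 for MGST2 to 9.50 for AKR1C3.

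NRF2 binds a short DNA element, the antioxidant response element, whose core TGACNNNGC was searched on both strands of RefSeq promoter windows (assembly GRCh38.p14, 250 bases before to 50 after a gene's start). Among members higher in KYSE180, 28 of 32 had a window and 10 of these (35.7%) held the core, beside 6 of 20 (30%) of the members not called higher, 1705 of 11334 (15%) of tested genes and 3684 of 27305 (13.5%) of all windows. Over all genes higher in KYSE180 the share was 130 of 970 (13.4%). A match is only a description of these letters, and the element of many NRF2 targets lies outside so short a window. Among the 10, the windows of the 3 with the largest difference are shown 5′ to 3′ on the gene's strand, with the matched core in capitals. They are GPX2 on the minus strand at chr14:64942696-64942995, GSTA4 on the minus strand at chr6:52995235-52995534 and ABCB6, a mitochondrial porphyrin transporter, on the minus strand at chr2:219218909-219219208. The match begins 122, 9 and 152 bases before the gene's start, and in GPX2 it reads on the opposite strand. The ABCB6 difference was 2.22 ± 0.11, and another of its probe sets gave 0.13, which was not significant.
GPX2: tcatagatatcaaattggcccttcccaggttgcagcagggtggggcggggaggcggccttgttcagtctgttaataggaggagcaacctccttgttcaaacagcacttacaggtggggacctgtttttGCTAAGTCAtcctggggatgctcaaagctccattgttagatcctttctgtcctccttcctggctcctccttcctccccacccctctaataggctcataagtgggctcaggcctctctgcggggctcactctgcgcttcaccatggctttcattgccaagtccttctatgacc
GSTA4: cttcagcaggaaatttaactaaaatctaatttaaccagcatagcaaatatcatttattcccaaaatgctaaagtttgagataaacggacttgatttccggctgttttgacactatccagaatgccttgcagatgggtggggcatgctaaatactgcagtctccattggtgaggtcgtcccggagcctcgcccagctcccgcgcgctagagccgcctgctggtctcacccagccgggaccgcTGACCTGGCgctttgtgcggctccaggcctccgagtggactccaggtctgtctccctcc
ABCB6: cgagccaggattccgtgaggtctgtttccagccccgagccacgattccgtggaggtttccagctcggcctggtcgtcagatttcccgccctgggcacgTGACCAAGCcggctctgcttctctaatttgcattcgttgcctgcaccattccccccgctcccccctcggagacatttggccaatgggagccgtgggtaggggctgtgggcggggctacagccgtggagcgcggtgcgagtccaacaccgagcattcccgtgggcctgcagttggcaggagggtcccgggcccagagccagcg

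Enzymes of aldehyde, retinoid, steroid and drug metabolism differed in both directions: 17 of 54 were higher and 11 lower, with a median difference of 0.01. ALDH1A1, which makes retinoic acid from retinaldehyde, read 10.75, 10.95, 10.59 and 10.58 in KYSE180 and 2.57, 2.15, 2.87 and 3.15 in KYSE30, while its relative ALDH1A3 read 7.75, 7.89, 8.26 and 8.13 against 11.54, 11.39, 11.34 and 11.38. The 2 members of this enzyme family thus differed in opposite directions. ADH7, the alcohol dehydrogenase of the upper digestive tract (6.90 ± 0.09), ALDH3A1 (5.68 ± 0.07), the retinoic acid receptor RARB (5.31 ± 0.17), the carboxylesterase CES1 (3.79 ± 0.13) and CYP1A1 (3.14 ± 0.11) were higher in KYSE180. CYP2R1, a vitamin D 25-hydroxylase (-4.07 ± 0.22), and the lactonase PON3 (-3.21 ± 0.08) were lower.

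Of 36 tested genes of sterol and fatty acid synthesis 13 were lower and 1 higher, with a median difference of -0.44. DHCR7, the last enzyme of cholesterol synthesis, read 8.49, 8.56, 8.69 and 8.67 in KYSE180 and 11.62, 11.69, 11.29 and 11.42 in KYSE30. LSS, which closes the sterol rings (-2.17 ± 0.09), the elongase ELOVL4 (-1.88 ± 0.09), the regulator SREBF1 (-1.36 ± 0.17), FASN (-1.23 ± 0.21) and the desaturase SCD (-1.20 ± 0.10) were lower, and ELOVL6 was higher by 1.18 ± 0.11. For FASN the difference was -1.78 between U sublines and -0.68 between D sublines.

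Genes of lipid uptake, storage and eicosanoids were evenly split, 12 higher and 12 lower of 55. Prostaglandin genes lay at both ends. PTGES, which makes prostaglandin E2, read 4.65, 4.49, 5.0 and 4.54 in KYSE180 and 10.28, 10.28, 10.16 and 10.17 in KYSE30. Its receptor PTGER4 read 3.32, 3.40, 3.76 and 3.67 against 10.18, 10.15, 9.83 and 9.77. PTGR1 (5.79 ± 0.06) and HPGD (2.76 ± 0.25), which break prostaglandins down, and PLA2G4A, which releases arachidonic acid (3.94 ± 0.16), were higher in KYSE180. PTGR1 was above the filter value in both lines, with a mean of 6.74 in KYSE30. These genes are examples from a list that was evenly split, and HPGD was chosen after its values were seen. CPT1A, the gate of fatty acid import into mitochondria, was higher by 2.61 ± 0.06, SGPP2, a sphingosine phosphate phosphatase, by 4.23 ± 0.05, while the lipase LIPG (-4.75 ± 0.08) and the nuclear receptor PPARG (-3.36 ± 0.07) were lower.

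Of 51 glycolysis and hypoxia genes 7 were higher and 10 lower, with a median difference of -0.02. The glucose transporter SLC2A1 (1.61 ± 0.09), the hexokinase HK2 (1.23 ± 0.14) and the aldolase ALDOC (2.08 ± 0.05) were higher in KYSE180, whereas the glycogen genes PPP1R3C (-4.42 ± 0.07), PGM1 (-2.18 ± 0.05) and PYGL (-1.97 ± 0.05) and the hypoxia factor EPAS1 (-2.0 ± 0.07) were lower. Among amino acid, one-carbon and polyamine genes 10 of 48 were higher and 3 lower. BCAT1, a branched-chain transaminase (2.60 ± 0.33), the arginase ARG2 (3.37 ± 0.06) and KYNU of the tryptophan pathway (3.23 ± 0.05) were higher, and PSPH, the last step of serine synthesis, was lower (-3.15 ± 0.07). Of 68 transporters 15 were higher and 13 lower. The amino acid transporters SLC7A8 (4.65 ± 0.09), SLC3A2 (1.65 ± 0.07) and SLC7A5 (1.13 ± 0.09) and the monocarboxylate family members SLC16A14 (4.10 ± 0.17) and SLC16A9 (3.80 ± 0.05) were higher in KYSE180, while the chloride channel protein CLIC3 (-6.29 ± 0.08), the sulfate transporter SLC26A2 (-2.98 ± 0.16) and the sodium channel subunit SCNN1A (-2.77 ± 0.28) were lower. Among 48 nucleotide and NAD genes 9 were higher and 11 lower. NNT, which uses the mitochondrial proton gradient to make NADPH, read 9.03, 8.90, 9.19 and 9.13 in KYSE180 and 3.52, 3.83, 3.33 and 3.59 in KYSE30, so its transcript was below the filter value in KYSE30. NMNAT3, an NAD synthase of the mitochondria, was higher by 3.47 ± 0.08, NMNAT2 was lower (-2.42 ± 0.07), and NT5E (CD73), which makes extracellular adenosine, was lower (-5.51 ± 0.31).

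Of 31 receptor tyrosine kinases 6 were higher in KYSE180 and 3 lower. NTRK2, the receptor of BDNF, read 9.73, 9.74, 9.65 and 9.51 in KYSE180 and 2.41, 2.49, 2.28 and 2.28 in KYSE30 (7.29 ± 0.05, limma adjusted p = 9.37e-12), while its ligand BDNF was lower (-2.57 ± 0.14). KIT (4.70 ± 0.16) and FGFR2 (4.21 ± 0.09) were higher too. AXL read 5.22, 5.73, 6.41 and 6.18 in KYSE180 against 11.41, 11.41, 11.71 and 11.77 in KYSE30, and ROR1, a Wnt-binding receptor, was lower (-4.32 ± 0.05). EGFR was bright in both, at 11.47, 11.49, 11.74 and 11.56 against 12.29, 12.33, 12.31 and 12.41. Its difference of -0.77 ± 0.06 did not reach 2-fold. Of 8 other EGFR probe sets above the filter value, 6 were also lower (limma, adjusted p under 0.05) and 1 was higher, by 0.48.

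Among ligands of EGFR, epiregulin, EREG, read 2.44, 2.37, 2.5 and 2.30 in KYSE180 against 8.31, 8.25, 8.46 and 8.38 in KYSE30, and TGFA, chosen after its values were seen, was lower (-1.84 ± 0.14). Of 61 MAPK and PI3K feedback genes and regulators 5 were higher and 17 lower, with a median difference of -0.13. DUSP4, a phosphatase that ERK induces and that acts back on it, read 5.44, 5.25, 4.59 and 4.88 against 9.66, 9.73, 9.61 and 9.78. The related phosphatases DUSP10 (-3.67 ± 0.07), DUSP6 (-2.53 ± 0.14) and DUSP5 (-2.46 ± 0.15), the inhibitors SPRY1 (-3.45 ± 0.08) and ERRFI1 (-3.36 ± 0.08), and PHLDA1 (-3.53 ± 0.08) and ETV5 (-2.89 ± 0.17), which respond to ERK, were lower as well. DUSP5, DUSP6, SPRY1, ERRFI1 and ETV5 were chosen after their values were seen. Of the 61 genes 39 were not called, and the 36.1% called is close to the 37.9% over all lists. SGK1, a kinase downstream of PI3K (2.08 ± 0.06), was higher. Among 45 growth factors and modulators 9 were higher and 7 lower. Endothelin 1, EDN1 (5.02 ± 0.10), and IGFBP5 (4.90 ± 0.50) led those higher.

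Wnt pathway genes were higher in 10 of 48 tested and lower in 3. WNT5A, a ligand of the non-canonical pathway, read 10.82, 10.98, 10.80 and 10.86 in KYSE180 and 2.73, 2.87, 3.18 and 3.28 in KYSE30 (7.85 ± 0.10, limma adjusted p = 2.47e-10). The planar polarity protein VANGL2 (4.61 ± 0.08) and the receptor FZD1 (3.81 ± 0.31) were higher, and the inhibitor DKK1 was lower (-2.13 ± 0.05) from a bright level in KYSE30. ROR1, which can act as a receptor for WNT5A, was lower in the line with the higher WNT5A level, as given above. Of 31 Notch genes 6 were higher and 1 lower, with differences of 1.97 ± 0.05 for the receptor NOTCH3 and 2.13 ± 0.05 for the target NRARP.

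TGF-beta and BMP genes were lower in 13 of 54 and higher in 7, with a median difference of -0.48. TGFBI, a matrix protein that TGF-beta induces, read 5.80, 5.65, 5.59 and 5.71 in KYSE180 against 11.67, 11.68, 11.72 and 11.71 in KYSE30. The ligands TGFB2 (-4.07 ± 0.18) and BMP4 (-2.56 ± 0.05), the BMP inhibitor NOG (-3.80 ± 0.07) and the co-receptor TGFBR3 (-3.88 ± 0.07) were lower, while BMP7 (3.54 ± 0.15) and the inhibitors FST (2.14 ± 0.11) and BAMBI (2.14 ± 0.12) were higher. GDF15 was lower (-3.97 ± 0.39) on a probe set that may bind several transcripts; another probe set gave -0.24, which was not called (limma adjusted p = 0.0752), so its difference is uncertain.

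The Hippo, YAP and TEAD list held 13 of 35 genes lower and 4 higher, with a median difference of -0.40. VGLL1, a cofactor of TEAD factors, read 2.95, 2.45, 2.98 and 3.55 in KYSE180 and 10.29, 10.43, 10.26 and 10.27 in KYSE30. CCN1 read 7.32, 7.26, 7.06 and 7.21 against 11.27, 11.16, 11.66 and 11.50, and CCN2 was lower (-3.51 ± 0.31); both are secreted proteins widely used as YAP readouts. FAT2, a giant cadherin of squamous epithelium (3.72 ± 0.17), TEAD2 (2.53 ± 0.11) and AJUBA (1.98 ± 0.06) were higher. The arrays of the lines did not overlap for any of these genes, which holds for 2390 of all 2393 called genes.

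**Figure D5:**
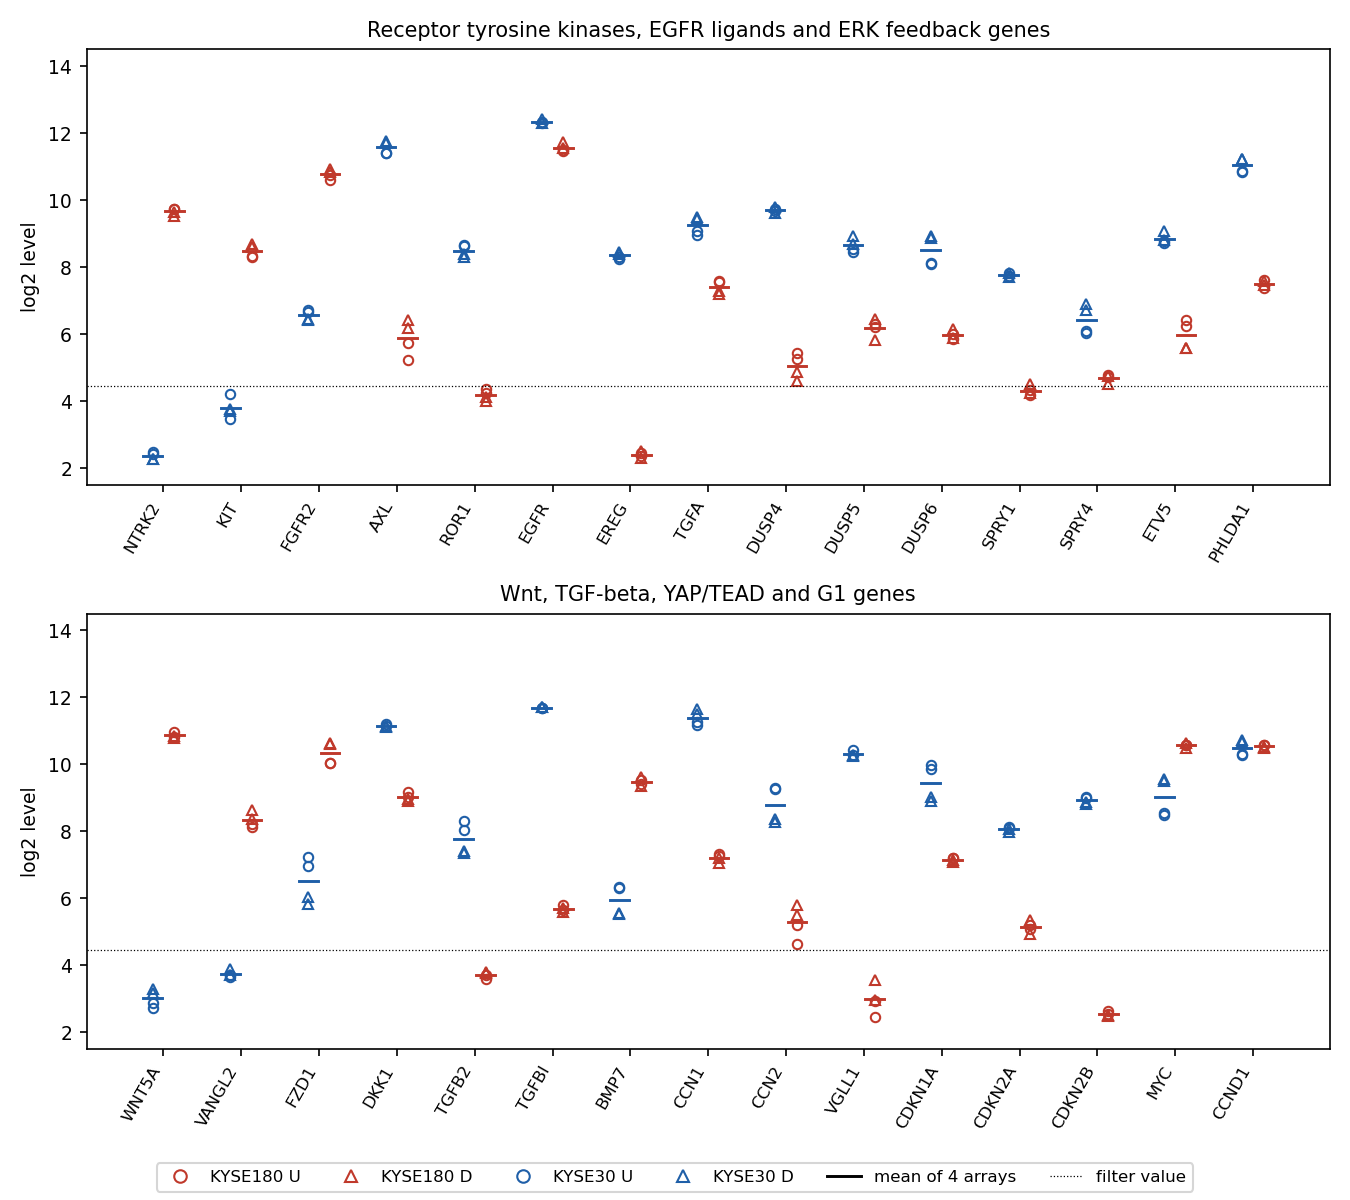
Log2 level on each of the 8 arrays for 15 receptor, ligand and ERK feedback genes (top) and 15 Wnt, TGF-beta, YAP and cell cycle genes (bottom), with KYSE180 in red, KYSE30 in blue, circles for U and triangles for D sublines, bars for the mean of 4 arrays and a dotted line at the filter value of 4.46. The genes are examples chosen after their values were seen; NTRK2 and WNT5A lie far higher in KYSE180, EREG and CDKN2B far lower, and EGFR and CCND1 lie close together.

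In G1 control, the inhibitors CDKN2A and CDKN2B set the lines apart. Of 49 tested genes of this list 5 were higher and 9 lower. CDKN2B (p15) read 2.65, 2.54, 2.52 and 2.48 in KYSE180 and 9.02, 9.01, 8.88 and 8.81 in KYSE30, a difference of -6.38 ± 0.05 (limma adjusted p = 1.33e-11). CDKN2A (p16 and p14) read 5.07, 5.21, 5.34 and 4.93 against 8.11, 8.13, 7.98 and 8.06. CDKN1A (p21), the p53 target that blocks CDKs, was lower (-2.28 ± 0.16), as was PLK2 (-2.97 ± 0.07). TP53I3 and CYFIP2, from the same list of G1 control genes and p53 targets, were called higher in KYSE180. Their KYSE180 and KYSE30 means were 8.53 and 7.13 for TP53I3, and 5.96 and 4.59 for CYFIP2. CDKN1A was chosen after its values were seen, and p53 activity was not tested. MYC was higher by 1.54 ± 0.19, a difference of 2.05 between U and 1.02 between D sublines. Cyclin D1, CCND1, was at 10.58, 10.57, 10.52 and 10.50 in KYSE180 and 10.32, 10.28, 10.73 and 10.67 in KYSE30, and these ranges overlap (0.04 ± 0.09, limma adjusted p = 0.713).

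Interferon and JAK-STAT genes were more often on KYSE30's side, with 20 of 71 lower in KYSE180, 9 higher and a median difference of -0.09. The guanylate-binding protein GBP3 read 3.71, 4.18, 4.35 and 4.03 in KYSE180 and 9.38, 9.33, 9.94 and 10.01 in KYSE30. IFIT2 (-3.07 ± 0.19), IFIT3 (-2.94 ± 0.18), ISG15 (-2.48 ± 0.18), the DNA sensor adaptor STING1 (-2.23 ± 0.10) and the factor IRF1 (-1.95 ± 0.09) were lower, whereas MX1 (3.53 ± 0.14), BST2 (3.11 ± 0.24) and IFITM1 (3.09 ± 0.12) were higher. Members of the same antiviral response therefore differed in opposite directions. ISG15, STING1 and IRF1 were chosen after their values were seen. Of the 71 genes 42 were not called, and the 40.8% called is close to the 37.9% over all lists. Of 51 cytokine, chemokine and NF-kB genes 6 were higher and 4 lower, which at 19.6% is close to the 16.9% of all tested genes. CXCL1 (4.34 ± 0.09) and the death ligand TNFSF10 (3.48 ± 0.16) were higher, TNFSF15 (-4.36 ± 0.23) and CCL5 (-2.25 ± 0.19) lower.

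G protein-coupled receptors and their regulators were split, 15 higher and 18 lower of 61. ACKR3, a scavenging chemokine receptor, read 10.71, 10.61, 10.26 and 10.17 in KYSE180 against 2.77, 2.90, 2.98 and 2.79 in KYSE30. NPR3, a natriuretic peptide clearance receptor (3.92 ± 0.09), and the ATP and ADP receptor P2RY1 (3.52 ± 0.08) were higher. PTGER4, the adhesion receptor ADGRF1 (-5.44 ± 0.10), the G protein subunit GNG11 (-4.59 ± 0.18) and GPRC5A (-3.55 ± 0.12) were lower.

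At the cell surface, several desmosome genes were higher in KYSE180. Among cadherins and desmosomes 9 of 33 were higher and 6 lower. Plakophilin 1, PKP1, a desmosomal plaque protein of stratified epithelium, read 10.44, 10.12, 10.22 and 10.14 in KYSE180 and 4.85, 4.96, 5.05 and 4.18 in KYSE30. The desmosomal cadherins DSC3 (4.19 ± 0.19) and DSG3 (3.40 ± 0.08) and desmoplakin, DSP (1.37 ± 0.07), were higher, and PCDH1 (-2.59 ± 0.08), PCDH7 (-2.43 ± 0.24) and CDH19 (-3.21 ± 0.10) lower. Among tight and gap junction genes 6 of 37 were higher and 8 lower. The gap junction proteins GJA1 (connexin 43) and GJB6 (4.16 ± 0.16) were higher, whereas claudin 1, CLDN1, read 4.55, 4.57, 4.71 and 4.26 in KYSE180 against 10.98, 10.92, 10.55 and 10.60 in KYSE30, and the tight junction proteins TJP3 (-2.25 ± 0.13), CGN (-2.15 ± 0.08) and CLDN4 (-1.84 ± 0.06) were lower. PARD3, a polarity protein, was higher by 5.46 ± 0.10 on a probe set that may bind several transcripts.

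Among integrins and matrix receptors 4 of 36 were higher and 7 lower. The proteoglycan SDC2 read 9.33, 9.22, 9.05 and 9.09 in KYSE180 against 2.82, 2.82, 2.97 and 3.04 in KYSE30, and ITGBL1, an integrin-like secreted protein, 2.79, 2.51, 3.12 and 2.85 against 9.04, 9.24, 9.42 and 9.64. ITGA2, a collagen receptor subunit (-1.64 ± 0.05), and the urokinase receptor PLAUR (-2.26 ± 0.07) were lower. Of 49 immunoglobulin-like adhesion molecules 11 were higher and 7 lower, with CNTN1 (6.07 ± 0.38) and LRIG1 (4.63 ± 0.13), which restrains EGFR family receptors, at one end and L1CAM (-4.0 ± 0.16) and CEACAM1 at the other. Of 71 tetraspanins, CD antigens and anchored proteins 13 were higher and 19 lower. Podoplanin, PDPN, a surface protein of basal squamous cells, read 9.16, 9.21, 9.21 and 9.32 against 3.35, 3.31, 3.46 and 3.44, and CD24, read by a probe set that may bind several transcripts, 9.09, 9.07, 8.96 and 8.90 against 12.43, 12.41, 12.73 and 12.71. PROM2 was lower (-4.73 ± 0.07) and the tetraspanin TSPAN7 higher by 5.47 ± 0.10. Antigen presentation was the list with the smallest share called, 3 higher and 4 lower of 41, which at 17.1% is close to the 16.9% of all tested genes. The immunoproteasome subunit PSMB8 (2.31 ± 0.09) was higher, and the T cell inhibitor VTCN1 (B7-H4, -3.97 ± 0.13) and the peptide-trimming enzyme ERAP2 (-3.13 ± 0.09) lower. TAP2 was higher by 1.14 ± 0.11. Of its other probe sets 2 were higher too (1.08 and 0.62), but 1 with a mean of 4.61 differed by -0.86. Of 53 Eph receptors, ephrins and guidance molecules 8 were higher and 7 lower, with SEMA6D (4.39 ± 0.07) and EFNB2 (2.99 ± 0.04) against SEMA3A (-4.40 ± 0.18), NTN4 (-3.63 ± 0.23) and EPHA2 (-2.26 ± 0.06).

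Secreted matrix and proteases also differed by member. Of 55 matrix genes 12 were higher and 9 lower. MFAP5, a microfibril protein, read 11.65, 11.30, 12.01 and 12.03 in KYSE180 against 3.37, 3.05, 3.66 and 4.43 in KYSE30, and FBN2 (5.40 ± 0.10) and EDIL3 (4.66 ± 0.09) were higher, while the proteoglycan SPOCK1 (-6.67 ± 0.14) and the laminin chain LAMB1 (-4.69 ± 0.24) were lower. Of 71 proteases and inhibitors 11 were higher and 15 lower. The stromelysin MMP10 read 11.70, 11.53, 11.31 and 11.27 against 4.17, 4.24, 3.80 and 3.63, the collagenase MMP1 9.96, 10.04, 8.60 and 8.80 against 2.61, 2.52, 3.27 and 3.17, and MMP13 differed by 3.09 ± 0.20. The epithelial protease inhibitors PI3 (elafin, 7.27 ± 0.08) and SLPI (3.73 ± 0.23) were higher. The inhibitors TIMP1 (-3.23 ± 0.10), TIMP2 (-2.97 ± 0.05), TFPI (-5.28 ± 0.04) and TFPI2 (-5.13 ± 0.16) and the urokinase PLAU (-4.82 ± 0.14) were lower. Among the genes named, KYSE180 thus had the higher levels of these 3 metalloproteases, and KYSE30 those of TIMP1, TIMP2 and urokinase with its receptor. MMP13, SLPI, TIMP1, TIMP2 and TFPI2 were chosen after their values were seen, and 45 of the 71 list members were not called.

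The line difference was tested for whether it changed between U and D sublines. For 191 of 14180 genes (1.35%) the difference between D sublines and that between U sublines parted by at least 2-fold with an adjusted p under 0.05, and 127 of these had the more positive difference in D. Of the 2393 genes called between the lines 119 were among them. For 1, the glycine receptor subunit GLRB, the sign changed, from -2.10 between U to 0.04 between D sublines, where the lines were nearly equal. GLRB was named after its values were seen. GJA1 had the largest change: it read 12.33, 12.22, 12.37 and 12.32 in KYSE180 and 7.63, 7.60, 2.90 and 2.89 in KYSE30, so that the line difference was 4.66 between U and 9.45 between D sublines. IGFBP5 gave 3.48 and 6.31, CNTN1 5.01 and 7.14, and MMP1 7.43 and 5.48. For genes of this kind the SE of the line difference is wide, and the subline values describe them better than the common difference.

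Called genes were unevenly spread over the chromosomes. On chromosome 14, 97 of 473 tested genes (20.5%) were higher in KYSE180 and 19 (4.02%) lower, with a median difference of 0.30, beside 8.22% and 8.65% over all tested genes. Chromosome 3 had 114 higher and 42 lower of 764 (median 0.20). The balance was the other way on chromosome 8, with 19 higher and 83 lower of 488 (median -0.23), and on chromosome 20, with 8 higher and 44 lower of 426 (median -0.04). Runs of at least 4 neighbouring tested genes called in the same direction numbered 29, 14 higher and 15 lower, and held 140 genes. The run on chromosome 9 joined CDKN2A, CDKN2B, ELAVL2 and TUSC1, with a median difference of -4.15, while the nearby MTAP differed by 0.57 ± 0.06 and was not called. On chromosome 14 there were 6 runs, all higher, such as the 7 genes SLC7A8, HOMEZ, PPP1R3E, BCL2L2, PABPN1, SLC22A17 and EFS. Chromosome 17 held the longest, 9 genes lower from ATPAF2 to SMCR8. Some runs are clusters of related genes: MMP10, MMP1 and MMP13 on chromosome 11 were higher, and IFIT2, IFIT3 and IFIT1 on chromosome 10 and MT2A, MT1E, MT1F, MT1G, MT1H and MT1X on chromosome 16 were lower. The metallothioneins are near-identical copies that probe sets may not separate. DNA copy number was not measured on these arrays, and its part in these runs was not tested.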

How the data were processed

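RNA from 8 sublines was measured on Affymetrix arrays of 54675 probe sets. The deposited values are log2 expression made by the authors with RMA, per the submitters' processing notes, which name no version. RMA makes array distributions alike and compresses dim signals, so differences of dim genes are understated. Probe sets were named from the platform annotation: 41091 had 1 symbol, 1801 several, 11721 no symbol in it, and 62 were array controls. Updated symbols came from a RefSeq table (GRCh38.p14), which matched 41037. Probe sets with a mean under the 40th percentile (4.46) were left out, and the brightest represented each gene, leaving 14180 of 19775. That level stands in for background and is not a detection call. Precision is limited by 4 arrays per line, and p-values reflect how far selected populations of 1 line vary, which may be in part technical.

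Tests used limma 3.58.1 in R 4.3.3 (lmFit, eBayes, two-sided) with line and fraction as terms and Benjamini-Hochberg adjustment over all tested genes; a second fit added their interaction. The fits were tested on simulated data. Per the labels, parental populations pair 30U-1 with 30D-1 and 30U-2 with 30D-2, but 180U-1 with 180D-2 and 180U-2 with 180D-1. Array deviations of paired arrays correlated with r = -0.02 in KYSE30 and 0.02 in KYSE180.

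Members and the 37 lists were chosen with earlier results of these data known. The rule names the 15 genes furthest in each direction, 3 in each direction per list and 12 fixed genes; 61 tested genes were added as examples after their values were seen. The alternatives were other filters, probe-set rules, scalings, thresholds, replicate blocks, U or D alone and leaving out each array.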

Additional observations from a re-analysis of the deposited data

Results flagged for a closer look

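Among the genes named, 31 showed a line difference that itself differed between U and D sublines by the interaction test in limma (adjusted p under 0.05 and at least 2-fold). Each value here is the difference between lines in D minus that in U, on the log2 scale. Groups of 2 arrays are too small to test for outlying arrays.

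In keratinocyte genes the line difference was more positive in D for SOX2 (1.91), DSC3 (1.02), KRT13 (1.20), FLG (1.13) and PADI3 (1.50), and less positive for KRTDAP (-1.65), SERPINB3 (-1.59) and SLPI (-1.30). Surface and matrix genes with a more positive difference in D were GJA1 (4.79), CNTN1 (2.13), LAMB1 (1.36), NTN4 (1.31), PCDH7 (1.24) and SCNN1A (1.60). The difference was less positive for NT5E (-1.71) and MMP1 (-1.95). LAMB1, NTN4, PCDH7, SCNN1A and NT5E were lower in KYSE180 in both sublines. The gap between the lines was therefore smaller in D for LAMB1, NTN4, PCDH7 and SCNN1A, and larger for NT5E. Growth factor and signalling genes gave IGFBP5 2.83, GDF15 2.23, FZD1 1.73, CCN2 1.67, IGFBP2 1.19, FZD10 -1.23, NTS -1.81 and MYC -1.03. Metabolic genes gave BCAT1 1.87, FASN 1.10 and CYP2R1 -1.13. Interferon and chemokine genes gave IFIT2 1.04, BST2 -1.13, CCL5 -1.04 and ISG15 -1.0. These 31 kept their direction in both sublines. GLRB, whose line difference was nearly absent in D sublines, was not counted among them and gave 2.14.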

How the results depend on the processing

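The count of genes that differ between the lines stayed within 1.5 times 2393 under all alternatives except 2 of the call rule itself: 765 (375 higher, 390 lower) with a 4-fold requirement and 9518 with the adjusted p alone. Leaving out each array gave 2378 to 2409 for the line difference and 176 to 194 for the 191 genes whose line difference differed between sublines. The replicate block hardly changed either: 2395 genes with the parental population as a random block (191 for the interaction) and 2392 with the replicate number as a fixed term. The random block had an estimated correlation of -0.37. A negative value does not widen the SE of the line difference, so this block was not a stricter test. A test against a 2-fold difference (treat) called 1686. Quantile normalization moved the split to 1123 higher and 1268 lower. Of 281 named genes 249 could be run in all 23 alternatives (251 passed the 60th percentile filter and 279 had a probe set not ending in _x_at). In the alternatives run, 224 kept their call and direction, of them 200 in all 23, and none was reversed. The others mostly lost a call to the 4-fold rule (50 genes), treat (15), the mean of probe sets (14), or D arrays alone (9). The medians of 11 lists moved under at least 1 alternative. That of the squamous factor list was 0.03 but -0.60 with a 60th percentile filter, -0.14 with the mean of probe sets and -0.17 without probe sets ending in _x_at, so it has no settled sign. With the 60th percentile filter the medians became 2.08 for stratified keratins (0.17 with no filter), -1.06 for simple epithelium, 0.47 for HOX genes, -0.30 for cancer-testis antigens, -0.42 for G protein-coupled receptors, -0.30 for integrins, 0.29 for cadherins and -0.24 for secreted matrix. The receptor median was -0.19 and the NRF2 median 1.02 on U arrays alone, and the TGF-beta median was -0.29 on D arrays alone. Differences of genes under 4.46 in 1 line depend on that value.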
